A study of Mus musculus with 4 samples.

Results

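The 10 genes described here encode ligands of the epidermal growth factor (EGF) family and receptors of the ERBB family. They were chosen by gene symbol from the deposited count tables, and 10 of the 54532 genes in the tables met that rule, 7 ligands (Egf, Areg, Ereg, Btc, Hbegf, Tgfa and Nrg1) and 3 receptors (Egfr, Erbb2 and Erbb3). The irradiated group held 2 RNA sequencing libraries, A and B, from tumours given 6 Gy of targeted radiation, and the unirradiated group held 2, also A and B. All 4 libraries came from Dll1 mcherry+ tumours of MMTV-PyMT mice of the C57BL/6 strain and carry 6D in their titles, and the treatment label places the radiation itself at day 6. In the MMTV-PyMT model the mouse mammary tumour virus promoter drives the polyoma middle T antigen in mammary epithelium, which forms carcinomas, so this transgene is common to both groups. The labels call the cells primary breast cancer-associated fibroblasts, detected with a PDGFRa antibody in digested tumours, and the sources used here give neither the animals' age nor the interval between radiation and collection.

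EGF family ligands are made as membrane-anchored precursors that metalloproteinases cut loose, and they act on neighbouring cells by joining ERBB receptors into pairs. EGF, TGF-alpha, amphiregulin, betacellulin, epiregulin and heparin-binding EGF bind EGFR, some of them ERBB4 as well, whereas neuregulins bind ERBB3 and ERBB4. ERBB2 has no known ligand and ERBB3 only a weak kinase, so they signal as partners of the others. In the mouse mammary gland, amphiregulin released by epithelium acts on EGFR of the stroma during ductal growth.

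Total counts ranged from 13011489 to 23763830 per library, so that 1 count was worth 0.0403 to 0.0809 CPM, the count scaled to a common library size by the TMM method. Whether A and B were separate animals is unstated, and p-values therefore reflect library-to-library spread that may be technical. In the libraries labelled fibroblasts, 20 luminal epithelial markers summed to 10390.3 and 10753 CPM in irradiated A and B, against 11566 and 11661 CPM in unirradiated A and B. The 17 fibroblast markers summed to 2122 and 2131 CPM in irradiated libraries, against 695 and 663 CPM in unirradiated libraries. The summed epithelial markers thus exceeded the summed fibroblast markers in every library, and a change cannot be assigned to either cell type. In such bulk libraries, fewer cells of a type and less RNA per cell cannot be told apart.

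Among the receptors, Egfr was the gene that rose and Erbb3 the gene that fell, and among the ligands Egf had the largest change, a fall. With 0.05 as the limit for the adjusted p of the edgeR quasi-likelihood test over all genes, 4 of the 10 genes were higher (Egfr, Ereg, Hbegf and Tgfa), 3 were lower (Egf, Nrg1 and Erbb3) and 3 did not pass (Areg, Btc and Erbb2). All 10 passed the filter on low counts. Over all 15961 tested genes 66.4% were called, 33.9% higher and 32.5% lower, so the share of these 10 genes called is near the background. Their median log2 fold change was 0.16, against -0.004 for all tested genes.

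**Figure D1:**
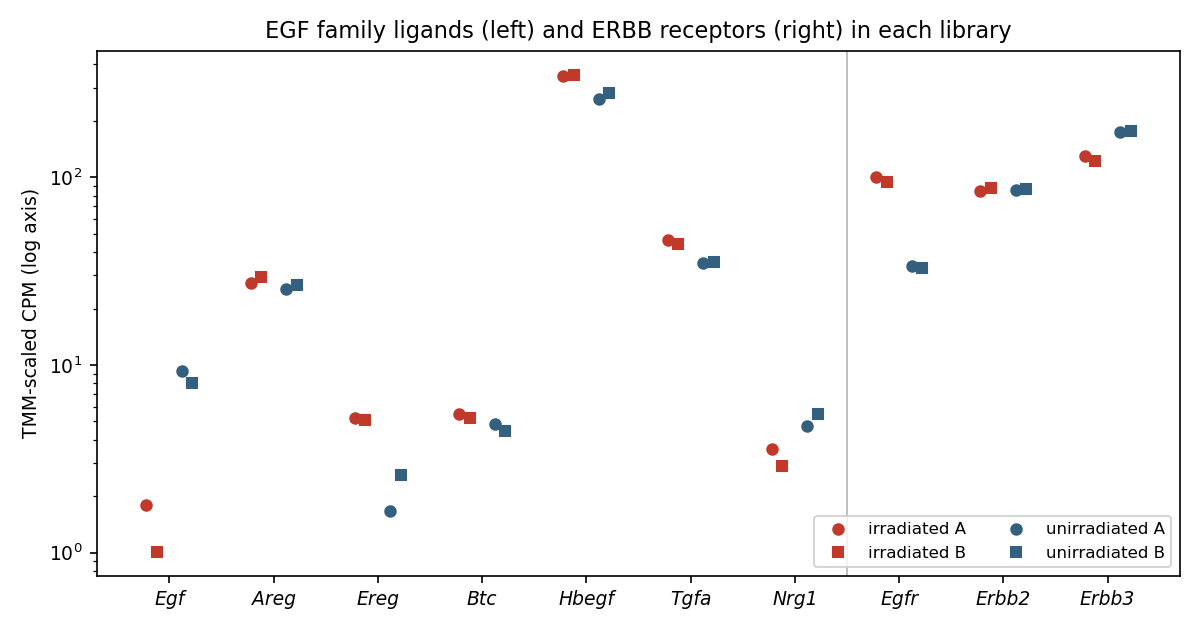
TMM-scaled CPM (log axis) of the 7 ligands and 3 receptors; red points are the irradiated libraries and blue points the unirradiated libraries, with circles for A and squares for B. Egf sits lower and Egfr higher in both irradiated libraries, and the points of Erbb2 overlap.

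Promoters are shown for Egfr and Egf, whose transcripts moved furthest in opposite directions among the receptors and ligands. That of Areg, the ligand next to Hbegf in CPM per kilobase of gene length, is shown as well. The sequences are RefSeq sequences of GRCm38.p6, with 250 bases before and 50 after the annotated start. Promoters of 6 of the 10 genes were read from that table (Egf, Areg, Btc, Tgfa, Egfr and Erbb2). Capitals mark matches, on either strand, to any of 7 motifs, namely the GC box GGGCGG, the TATA box TATAAA, the AP-1 motif TGANTCA, the CRE TGACGTCA, the E-box CACGTG, the ETS core CCGGAAGT and the CCAAT box CCAAT. No match of these motifs overlapped another in the sequences shown.
Egfr, chr11:16751953-16752252, plus strand: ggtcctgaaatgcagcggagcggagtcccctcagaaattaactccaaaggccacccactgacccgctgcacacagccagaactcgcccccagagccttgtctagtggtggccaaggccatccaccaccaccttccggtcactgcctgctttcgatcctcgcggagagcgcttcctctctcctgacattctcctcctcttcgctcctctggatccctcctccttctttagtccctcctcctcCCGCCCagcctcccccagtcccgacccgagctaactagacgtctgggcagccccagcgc
Egf, chr3:129755273-129755572, minus strand: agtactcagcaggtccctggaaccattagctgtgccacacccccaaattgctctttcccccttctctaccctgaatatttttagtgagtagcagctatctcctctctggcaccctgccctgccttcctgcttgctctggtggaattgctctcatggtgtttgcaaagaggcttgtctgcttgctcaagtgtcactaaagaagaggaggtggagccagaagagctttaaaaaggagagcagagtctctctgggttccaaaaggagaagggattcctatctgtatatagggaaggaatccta
Areg, chr5:91139349-91139648, plus strand: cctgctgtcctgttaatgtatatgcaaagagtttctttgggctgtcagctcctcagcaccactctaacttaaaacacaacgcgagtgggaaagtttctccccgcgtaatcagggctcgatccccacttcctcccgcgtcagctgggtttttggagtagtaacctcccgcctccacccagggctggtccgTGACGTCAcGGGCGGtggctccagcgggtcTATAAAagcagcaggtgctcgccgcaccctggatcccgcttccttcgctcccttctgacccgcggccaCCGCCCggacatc

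The Egfr promoter held 1 GC box and 15 CpG dinucleotides, and the Egf promoter shown held none of the 7 motifs and 0 CpG, where the median over all 32851 promoters in the table was 7 CpG. RefSeq lists a second Egf start inside the gene, whose window (chr3:129725037-129725336) held 1 ETS core and 17 CpG, and the gene counts do not say which start was used. The Areg promoter held 2 GC boxes, 1 TATA box, 1 CRE and 21 CpG. A GC box was present in 35.7% of all promoters, a TATA box in 13.6%, an AP-1 motif in 7.81%, a CRE in 1.79%, an E-box in 7.15%, the ETS core in 3.89% and a CCAAT box in 37.4%. These matches describe letters in the windows and no binding was measured.

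Egfr encodes the receptor for EGF and most ligands of the family (chromosome 11, 16752203 to 16918158, mm10). It was at 101 and 94.7 CPM in irradiated A and B, against 33.9 and 32.8 CPM in unirradiated A and B. The groups did not overlap, and both irradiated libraries were well above both unirradiated ones. The change was 2.93-fold (95% interval 2.66 to 3.22, log2 fold change 1.55, SE 0.0697, adjusted p = 1.71e-29). Fibroblast markers rose in the same libraries, with a summed level 3.13 times as high in the irradiated group, while the 9 basal and myoepithelial markers summed to 349.5 and 353 CPM in irradiated A and B, against 355 and 360 CPM in unirradiated A and B. That sum held members that moved in opposite directions, with Krt5 at 0.358, Krt15 at 0.32 and Dsg3 at 0.169 times the unirradiated level and Krt17 and Oxtr 2.09-fold and 1.97-fold higher. Per length, the ratio of Egfr to Pdgfra, the fibroblast receptor detected by the antibody, was 3.92 and 3.41 in irradiated libraries and 5.52 and 5.06 in unirradiated libraries. The choice of marker sets this direction: of 16 tested fibroblast markers 9 had a larger fold than Egfr and 7 a smaller one, among them Dcn (1.81-fold), Pdgfrb (1.11), Thy1 (1.02) and Fbln1 (0.654). The ratio of Egfr to Krt5 was 0.703 and 0.592 in irradiated libraries, against 0.0813 and 0.0743 in unirradiated libraries. To the endothelial gene Pecam1 (1.17-fold) it was 2.26 and 2.08 in irradiated libraries, against 0.860 and 0.876 in unirradiated libraries. The marker chosen sets this direction too: Kdr (4.67-fold), Flt1 (4.27) and Vwf (3.81) rose more than Egfr. The other endothelial markers, such as Cdh5 (2.04-fold), had smaller folds than Egfr. The part of these cell types in the rise of Egfr was not tested.

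Erbb3 encodes the neuregulin receptor with a weak kinase (chromosome 10, 128567523 to 128589652). It was at 129.7 and 122 CPM in irradiated A and B, against 174 and 177 CPM in unirradiated A and B. The groups did not overlap, and Erbb3 fell by 0.48 on the log2 scale (SE 0.0511, adjusted p = 9.84e-13), to 0.716 times the unirradiated level (95% interval 0.667 to 0.768). Markers of luminal epithelium, in which Erbb3 is known to be expressed, had a summed level 0.91 times the unirradiated one. Of these 20 markers 12 were lower and 6 higher, where 32.5% of all tested genes were lower and 33.9% higher. Per length, the ratio of Erbb3 to Epcam (0.914 times the unirradiated level) was 0.0405 and 0.0367 in irradiated libraries, against 0.0484 and 0.0499 in unirradiated libraries. The marker chosen sets this direction too: Prom1 (0.554 times), Gata3 (0.582), Spint2 (0.612) and Krt18 (0.696) fell further than Erbb3. The other luminal markers fell less than Erbb3 or rose. Erbb3 is also a receptor of Schwann cells, whose markers summed to 0.869 times the unirradiated level, a direction set by Sox10, since without it the sum was 139 and 138 CPM in irradiated libraries, against 117 and 114 CPM in unirradiated libraries. The part of these cells in the fall of Erbb3 was not tested.

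Erbb2 encodes the ligandless partner receptor, the HER2 of breast cancer (chromosome 11, 98412470 to 98437716). Its level was 84.8 and 87.6 CPM in irradiated A and B and 86.0 and 87.2 CPM in unirradiated A and B. The groups overlapped, and the ratio was 0.997 with a 95% interval of 0.919 to 1.08 (adjusted p = 0.955). With changes corrected for gene length and GC content (the length-GC correction), however, Erbb2 passed with a log2 fold change of -0.14 (adjusted p = 0.0258). Erbb4, the remaining receptor of the family and not among the 10 genes, had only 44 and 52 counts in irradiated A and B and 16 and 26 counts in unirradiated A and B. It did not pass (log2 fold change 0.68, 95% interval -0.02 to 1.38, adjusted p = 0.0808), but it passed without unirradiated B (1.28, adjusted p = 0.0117).

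Egfr thus made up a larger part of the receptor transcripts in irradiated libraries. Levels of different genes are compared here as CPM per kilobase of gene length. Of the 4 receptors' summed CPM per kilobase, Egfr took 19.0% and 18.3% in irradiated A and B, against 6.16% and 5.89% in unirradiated A and B. Erbb3 took 45.9% and 44.4% in irradiated libraries, against 59.7% in each unirradiated library, and Erbb2 took 34.6% and 36.9% against 34.0% in each. The order of the 3 receptors was the same in all 4 libraries, with Erbb3 first, Erbb2 next and Egfr last. The summed level of the 4 receptors was 47.0 and 45.6 CPM per kilobase in irradiated libraries and 48.5 and 49.2 in unirradiated libraries. With 2 libraries against 2, an exact two-sided permutation test of such a share cannot give a p below 0.333, so none was run.

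**Figure D2:**
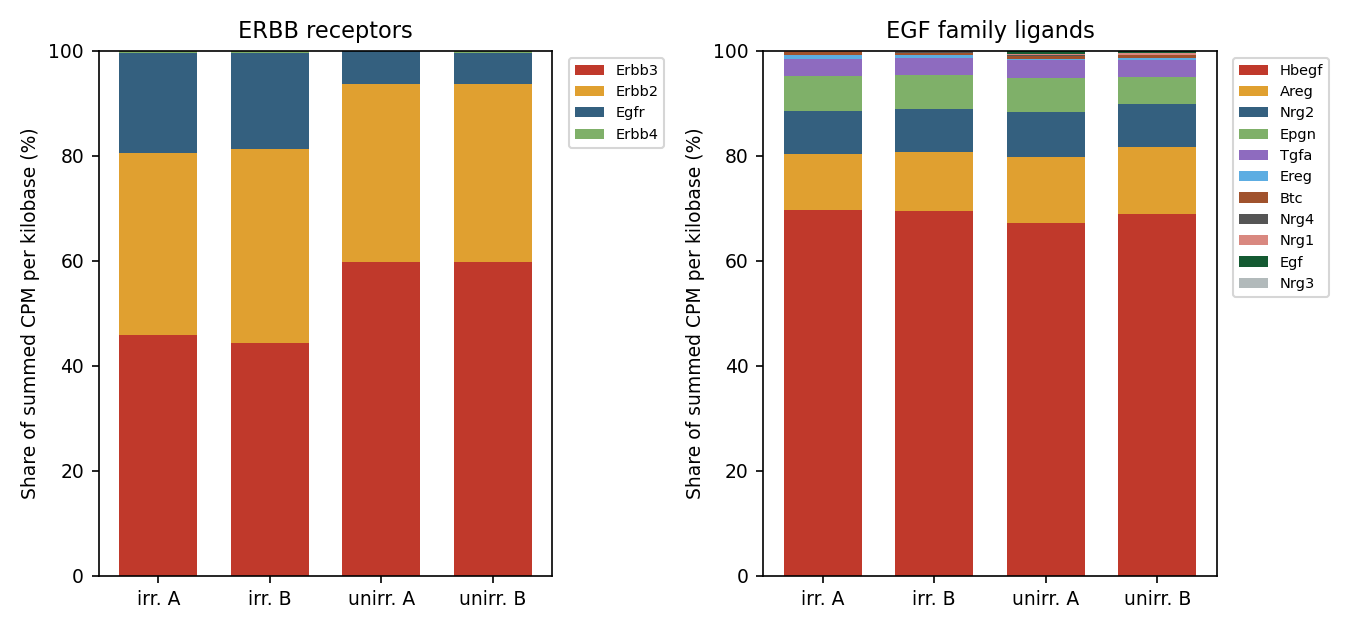
Share (%) of the summed CPM per kilobase in each library, for 4 receptors (left panel) and 11 ligands (right panel), irradiated A and B left of unirradiated A and B. The Egfr band is wider in both irradiated libraries (19.0% and 18.3%) than in the unirradiated ones (6.16% and 5.89%), while Hbegf takes 67.1% to 69.7% of ligand signal in every library.

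Egf, the founding ligand (chromosome 3, 129677565 to 129755316), had 30 and 25 counts in irradiated A and B, against 155 and 99 counts in unirradiated A and B. That corresponds to 1.80 and 1.01 CPM in irradiated libraries, against 9.25 and 8.01 CPM in unirradiated libraries. Both irradiated libraries were far below both unirradiated ones, though they also differed from each other. Egf fell by 2.71 on the log2 scale (SE 0.251, adjusted p = 7.74e-15), to 0.153 times the unirradiated level (95% interval 0.108 to 0.217). It was the lowest of the 10 genes per length in irradiated libraries, at 0.125 ± 0.0499 CPM per kilobase, against 0.765 ± 0.0776 in unirradiated libraries (SD, n = 2 each). Among 14359 genes averaging 1 CPM or more, the 3 whose centred log2 CPM over the 4 libraries lay nearest to that of Egf were the pseudogene Mospd4 (distance 0.264), the antisense gene AI463170 (0.287) and Cd177, a neutrophil surface protein gene (0.29).

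Neuregulin 1, the ligand of ERBB3 and ERBB4, is encoded by Nrg1 (chromosome 8, 31814551 to 32884029), which was also lower. It had 59 and 72 counts in irradiated A and B, against 79 and 68 counts in unirradiated A and B, which is 3.55 and 2.91 CPM against 4.71 and 5.50 CPM. The groups did not overlap, with a log2 fold change of -0.67 (SE 0.233, adjusted p = 0.00953). This call was lost without irradiated B (-0.50, adjusted p = 0.164), without unirradiated B (-0.57, adjusted p = 0.0617) and with DESeq2 (-0.63, adjusted p = 0.174), and over its 14 alternatives the adjusted p ranged from 8.81e-05 to 0.433.

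Hbegf, encoding heparin-binding EGF (chromosome 18, 36504929 to 36515805), was the most abundant of the 10 genes on either scale. It was at 347 and 353 CPM in irradiated A and B, against 261 and 282 CPM in unirradiated A and B. The groups did not overlap, and the rise was 1.29-fold (95% interval 1.22 to 1.38, adjusted p = 7.38e-11). Per length it stood at 148 ± 1.74 CPM per kilobase in irradiated and 114 ± 6.34 in unirradiated libraries (SD, n = 2 each), and it took 69.7% and 69.5% of the summed level of 11 ligands in irradiated A and B, against 67.1% and 68.9% in unirradiated A and B.

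Tgfa, encoding TGF-alpha, an EGFR ligand of epithelia and macrophages (chromosome 6, 86195223 to 86275719), was at 46.4 and 43.9 CPM in irradiated libraries, against 35.1 and 35.3 CPM in unirradiated libraries. The groups did not overlap, and the rise was 1.28-fold (95% interval 1.15 to 1.43, adjusted p = 7.13e-05). It was no longer past the threshold under the length-GC correction (log2 fold change 0.15 in place of 0.36, adjusted p = 0.0731). The adjusted p spanned 1.74e-05 to 1 in the 14 alternatives. Neither Hbegf nor Tgfa passed a test against a change of 1.5-fold, which 23.7% of all tested genes passed.

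Ereg, Areg and Btc lie on chromosome 5 in the order Epgn, Ereg, Areg, Btc, and of these 4 genes Epgn and Ereg passed the test. Ereg, encoding epiregulin (91074622 to 91093646), had 87 and 127 counts in irradiated A and B, against 28 and 32 counts in unirradiated A and B, which is 5.23 and 5.12 CPM against 1.67 and 2.59 CPM. Both irradiated libraries lay above both unirradiated ones, and Ereg rose 2.5-fold (95% interval 1.74 to 3.60, adjusted p = 1.31e-05). Epgn, the epigen gene next to it (91027464 to 91035215) and not among the 10 genes, was at 24.8 and 25.3 CPM in irradiated libraries, against 19.4 and 16.3 CPM in unirradiated libraries, a 1.39-fold rise (adjusted p = 7.56e-05).

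Areg, encoding amphiregulin (91139599 to 91148432), was at 27.2 and 29.3 CPM in irradiated A and B and at 25.4 and 26.8 CPM in unirradiated A and B. The irradiated libraries were slightly higher without overlap, but the ratio of 1.09 did not pass (95% interval 0.961 to 1.24, adjusted p = 0.219). It passed under the length-GC correction, with a log2 fold change of 0.48 (adjusted p = 4.25e-06). Its adjusted p ranged from 4.25e-06 to 1 over 14 alternatives. Btc, encoding betacellulin (91357261 to 91402994), was at 5.47 and 5.20 CPM in irradiated libraries and 4.83 and 4.45 CPM in unirradiated libraries, with a ratio of 1.14 and a 95% interval of 0.851 to 1.52 (adjusted p = 0.438). Counts of 220 in the irradiated and 136 in the unirradiated group limit what could be detected for Btc. The libraries of the 2 groups did not overlap for 9 of the 10 genes, where 82.5% of all tested genes did not overlap, so a lack of overlap says little here.

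Of 19 genes listed as neighbours of Ereg, Areg and Btc on chromosome 5, which include the chemokine genes next to the cluster, 15 were tested, 9 were higher and 2 lower (median log2 fold change 0.57), where 33.9% of all tested genes were higher and 32.5% lower. The neutrophil chemokine genes Cxcl5 and Cxcl1 rose, at 13.8 ± 0.0194 and 716 ± 0.388 CPM in irradiated libraries, against 1.37 ± 0.243 and 206 ± 1.03 CPM in unirradiated libraries (SD, n = 2 each). Parm1, which lies beyond Btc, rose 1.65-fold, and Mthfd2l, before Epgn, did not pass (log2 fold change 0.08, adjusted p = 0.591). Of 16 genes around Erbb2, 10 were tested, 4 were higher, 4 lower and 2 did not pass, where 66.4% of all tested genes were called. Grb7, an adaptor gene next to Erbb2, fell to 36.8 ± 1.06 CPM in irradiated libraries, against 47.5 ± 1.70 CPM in unirradiated libraries, and Cdk12 rose to 64.7 ± 0.718 CPM, against 45.6 ± 3.92 CPM (SD, n = 2 each). Mien1, which shares 9 exonic bases with Erbb2 on the opposite strand, fell to 9.29 ± 1.92 CPM in irradiated libraries, against 19.9 ± 1.08 CPM in unirradiated libraries.

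**Figure D3:**
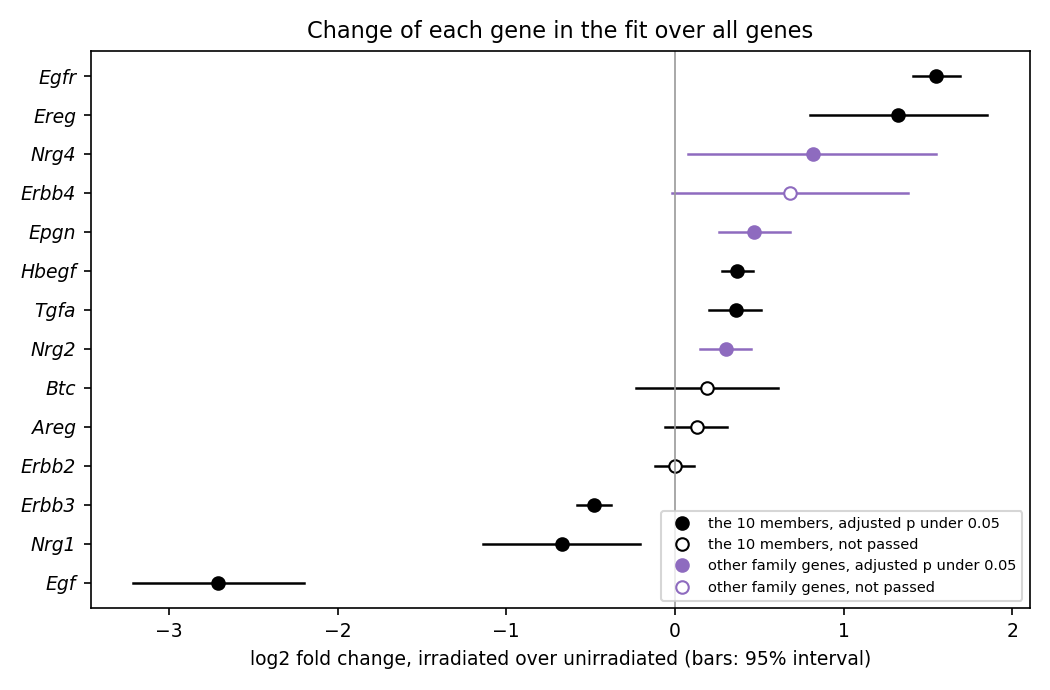
Log2 fold change, irradiated over unirradiated, with 95% intervals from the fit over all genes, for the 10 genes (black) and for 4 further family genes (purple); filled points passed an adjusted p under 0.05. Egfr (1.55) and Ereg (1.32) are at the top, Egf (-2.71) at the bottom, and Areg, Btc, Erbb2 and Erbb4 have intervals that include 0.

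Of 5 further family genes, 4 were tested and 3 were higher, where 33.9% of all tested genes were higher. Nrg2, a neuregulin gene, was at 52.9 and 53.0 CPM in irradiated A and B, against 42.7 and 43.4 CPM in unirradiated A and B, a 1.23-fold rise (adjusted p = 0.000261), and thus had far more signal than Nrg1 per length (17.2 ± 0.0358 against 0.312 ± 0.0439 CPM per kilobase in irradiated libraries, SD, n = 2 each). Nrg4 was at 1.68 and 2.42 CPM in irradiated libraries, against 1.37 and 0.971 CPM in unirradiated libraries. It passed narrowly (log2 fold change 0.82, adjusted p = 0.045), and the call was lost under upper-quartile scaling (0.77), with DESeq2 (0.84), with legacy dispersion (0.80), with the replicate block (0.78), under the length-GC correction (0.56), and without irradiated B (0.50), unirradiated A (1.12) or unirradiated B (0.63). Nrg3 had 0 counts in all 4 libraries.

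In the order of levels per length, Hbegf was first in both groups. Areg and Erbb3 were next, at 23.3 ± 1.25 and 20.9 ± 0.899 CPM per kilobase in irradiated libraries and at 21.5 ± 0.830 and 29.2 ± 0.306 in unirradiated libraries, so they changed places. Erbb2 followed at 16.5 ± 0.386 in irradiated and 16.6 ± 0.162 in unirradiated libraries. Egfr stood above Tgfa in irradiated libraries (8.66 ± 0.415 and 6.96 ± 0.271) and below it in unirradiated libraries (2.95 ± 0.0647 and 5.42 ± 0.0150). Ereg and Btc were close to each other in irradiated libraries (1.25 ± 0.0185 and 1.18 ± 0.0419), above Nrg1 and Egf. In unirradiated libraries Btc and Egf preceded Ereg (0.516 ± 0.157) and Nrg1 (0.493 ± 0.0539), and the values of Ereg and Nrg1 overlapped. All values are SD with n = 2 each, and no other neighbours in the order overlapped.

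Around the receptors, genes of ligand shedding, receptor feedback and adaptors were more often higher than lower, whereas the kinase and ERK output lists were split. Over all 5 lists, 57 of 92 tested genes were higher, 18 lower and 17 did not pass, where 33.9% of all tested genes were higher and 32.5% lower. Of 12 genes of ligand shedding and trafficking, 9 were higher and 0 lower (median log2 fold change 0.51). Adam17, the main sheddase of EGFR ligands, rose 1.42-fold to 87.9 ± 0.955 CPM in irradiated libraries, against 62.2 ± 2.28 CPM in unirradiated libraries. Adam10, which sheds EGF and betacellulin, rose 1.56-fold, and the metalloproteinase genes Adam9 and Adam12 rose 2.12-fold and 2.15-fold. Adam19 rose to 6.55 and 5.04 CPM in irradiated A and B, against 3.94 and 2.35 CPM in unirradiated A and B, a call lost without unirradiated B (log2 fold change 0.53). Timp3, an inhibitor of ADAM17, rose 6.42-fold to 237 ± 4.29 CPM, against 36.8 ± 0.677 CPM (SD, n = 2 each). Of the rhomboid pseudoproteases that mature ADAM17, Rhbdf1 rose 1.31-fold and Rhbdf2 did not pass (log2 fold change 0.07, adjusted p = 0.212), and its direction turned to -0.08 under the length-GC correction.

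Of 15 feedback inhibitors and ubiquitin ligases of the receptors, 10 were higher and 2 lower (median 0.37). Over all tested genes 33.9% were higher and 32.5% lower. Errfi1, whose product binds and blocks the EGFR kinase, was at 1241 and 1219.8 CPM in irradiated A and B, against 971 and 953 CPM in unirradiated A and B, a 1.28-fold rise (adjusted p = 4.57e-13). Socs5, which promotes EGFR degradation, rose 2.92-fold, and Cbl, the ubiquitin ligase of activated EGFR, rose 1.54-fold. Cblc, its epithelial relative, fell to 30.9 ± 1.16 CPM in irradiated libraries, against 51.9 ± 2.70 CPM in unirradiated libraries (SD, n = 2 each). Lrig1, an inhibitor that lowers ERBB protein, did not pass (log2 fold change -0.06, adjusted p = 0.388), but passed at -0.20 under the length-GC correction.

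Of 19 receptor adaptors and substrates, 16 were higher and 2 lower (median 0.42), against 33.9% and 32.5% of all tested genes. Eps8, an EGFR substrate that acts on actin, rose 5.67-fold to 62.3 ± 2.94 CPM in irradiated libraries, against 11.2 ± 1.91 CPM in unirradiated libraries. The docking protein gene Gab1 rose 2.32-fold and the phospholipase gene Plcg1 1.88-fold. Of 22 genes of RAS, MAPK and PI3K signalling, 10 were higher, 5 lower and 7 did not pass (median 0.04). That share called is near the 66.4% over all tested genes. The growth regulator kinase gene Mtor fell to 32.8 ± 1.00 CPM in irradiated libraries, against 48.8 ± 3.15 CPM in unirradiated libraries (SD, n = 2 each).

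Genes that ERK signalling is known to induce were split, with 12 of 24 higher, 9 lower and 3 not passed (median 0.19). Among all tested genes 33.9% were higher and 32.5% lower. The urokinase receptor gene Plaur rose 3.00-fold, the cyclin D1 gene Ccnd1 2.81-fold and the ERK phosphatase gene Dusp5 2.18-fold. Etv1, an ETS transcription factor gene, fell to 45.2 ± 2.83 CPM in irradiated libraries, against 142 ± 4.69 CPM in unirradiated libraries (SD, n = 2 each). The most abundant gene of the list, the AP-1 subunit gene Fos, fell to 2285 and 2348 CPM in irradiated A and B, against 4271 and 4285 CPM in unirradiated A and B. With Fos the list's summed CPM was 0.888 times the unirradiated sum, and without it 1.11 times.

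**Figure D4:**
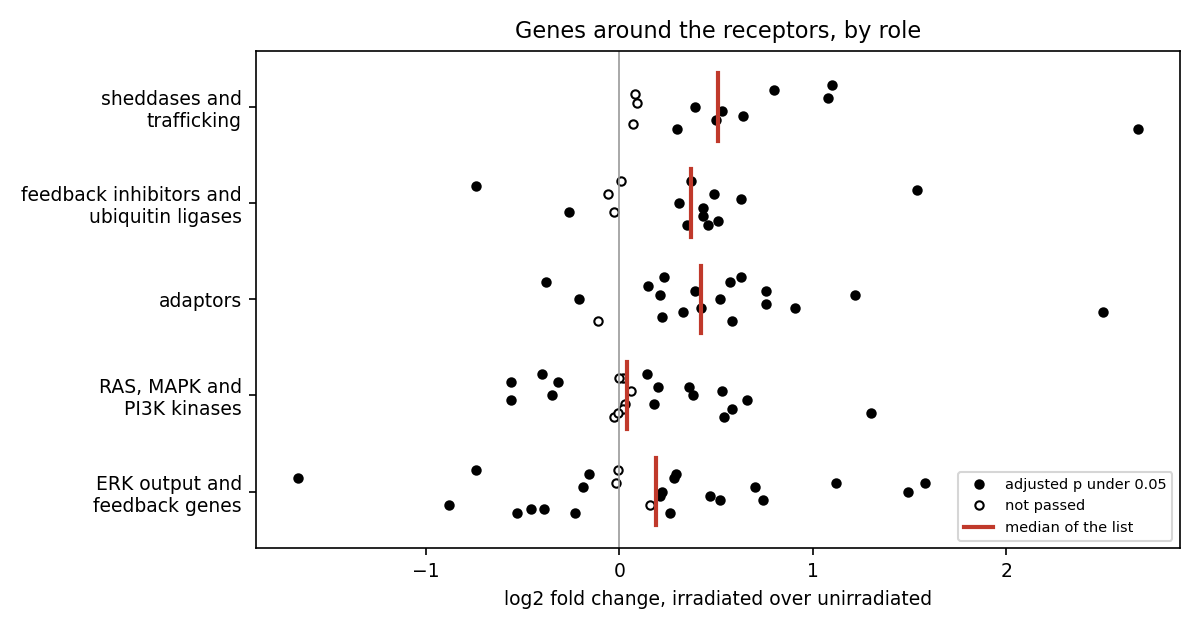
Log2 fold change of each tested gene in 5 lists ordered by role, irradiated over unirradiated; filled points passed an adjusted p under 0.05 and the red line is the list's median. The medians of the first 3 lists lie at 0.51, 0.37 and 0.42, that of the RAS, MAPK and PI3K genes at 0.04 and that of the ERK output genes at 0.19.

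Marker genes of several cell types moved with these genes, and their part in the changes was not tested. Counts of called markers stand beside 33.9% higher and 32.5% lower over all tested genes. The 15 macrophage markers summed to 924 and 925 CPM in irradiated A and B, against 472 and 470.4 CPM in unirradiated A and B, and 11 of 14 tested were higher and 1 lower, with Marco at or near 0 in all libraries. Macrophages are known producers of Ereg and Hbegf, and per length the ratio of Ereg to Csf1r was 0.164 and 0.158 in irradiated libraries, against 0.117 and 0.213 in unirradiated libraries. The 13 endothelial markers summed to 228 and 216 CPM in irradiated libraries, against 101 and 106 CPM in unirradiated libraries, with 11 of 13 higher and 0 lower. Of 16 tested fibroblast markers 13 were higher and 1 lower, with S100a4 at 0 in irradiated A and unirradiated B.

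For pericytes and smooth muscle, 6 of 9 markers were higher and 0 lower, and the sum was 339 and 340 CPM in irradiated A and B, against 238 and 225 CPM in unirradiated A and B. Over all tested genes 66.4% were called, 33.9% higher and 32.5% lower. The pericyte, basal and adipocyte lists were near or below the share called. T and NK cell markers were low, at 6.07 and 5.85 CPM in irradiated libraries, against 13.7 and 14.4 CPM in unirradiated libraries, with 5 of 7 tested lower and 0 higher. Of 9 basal markers 2 were higher and 3 lower. Schwann and nerve markers summed to 512 and 514 CPM in irradiated libraries, against 580.1 and 601 CPM in unirradiated libraries, of which Sox10 alone had 374 and 376 CPM against 463 and 487 CPM. Of the 8 tested Schwann markers 3 were higher and 4 lower. Adipocyte markers summed to 28.4 and 28.6 CPM in irradiated libraries, against 35.4 and 31.8 CPM in unirradiated libraries, with 1 of 4 tested higher and 1 lower, and without Lipe the ratio of the sums turned to 1.18.

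**Figure D5:**
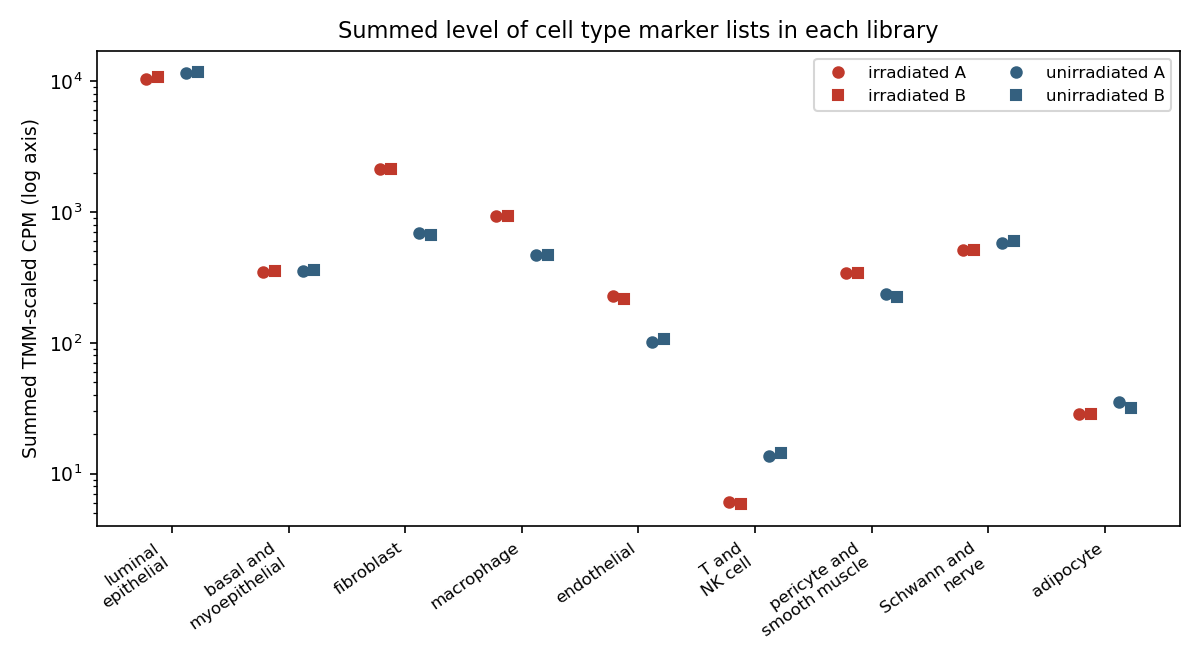
Summed TMM-scaled CPM (log axis) of 9 cell type marker lists in each library; red points are irradiated and blue points unirradiated libraries, with circles for A and squares for B. Fibroblast, macrophage and endothelial sums are higher in both irradiated libraries, T and NK cell sums are lower, and luminal epithelial sums are the highest in every library.

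The libraries do not mark strand, so reads of a gene and an overlapping partner cannot be told apart. Besides Mien1, the exons of Egf overlap 2 antisense genes, and those of Ereg, Tgfa and Nrg1 overlap 1 gene each. Reads counted for these partners were at most 12 in a library, reached by Gm26578 beside Nrg1 in unirradiated B.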

How the data were processed

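RNA was measured in 4 libraries, 2 irradiated and 2 unirradiated, grouped by the treatment label. The deposited files hold the authors' counts per gene as whole numbers, not normalized, with a gene length. The tools named, per the submitters' processing notes, are STAR 2.5, HTSeq 0.6.1 and DESeq2, with mm10 as build, while the sources used here give no settings or annotation. Per the labels' protocols, poly(A) RNA was made into libraries by a kit that does not mark strand.

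The counts of all genes were tested with edgeR 4.0.16 in R 4.3.3 (filterByExpr, TMM factors, quasi-likelihood F-test, Benjamini-Hochberg over 15961 genes, threshold 0.05), which gave every adjusted p-value for which no other tool is named. SE is the size of the log2 change divided by the root of F. The fit had 2 residual and 60.0 prior degrees of freedom. CPM per kilobase is TMM-scaled CPM over the deposited gene length. The median chi-square between libraries of a group was 2.16 (irradiated) and 2.13 (unirradiated) times that expected from counting, against 26.1 to 28.7 between groups. The spread between libraries of a group beyond counting noise, shared over genes, was 3.86% as a coefficient of variation. Each library was kept as a replicate, though these values cannot tell separate animals from technical repeats. The code was tested on simulated data.

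The 10 genes and the 17 other gene lists were chosen with earlier results of these data known, and 1 listed gene was not matched by symbol. Named genes are the 10, up to 4 called genes per list (mean 1 CPM or more, by size of change), a few regulators by role, and, for the gene with the largest change, its 3 nearest patterns; Adam10, Mthfd2l, Sox10, Csf1r, Fos, Marco, S100a4 and the further fibroblast, basal, endothelial and luminal markers were added after their values were seen. Some genes that this rule would name are not reported here. The alternatives tried were DESeq2 1.42.0, RLE or upper-quartile scaling, legacy dispersion, no filter or a stricter one (1 CPM in 2 libraries), a replicate block by letter, a correction for gene length and the GC content of the longest GENCODE M21 transcript, leaving out each library, a threshold of 0.1 and a test against 1.5-fold.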

Additional observations from a re-analysis of the deposited data

How the results depend on the processing

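Of the 140 values of the 10 genes under 14 alternatives, 125 kept their direction and side of the threshold, 8 lost the call, 2 gained it and 5 changed sign. Egf, Ereg and Egfr kept both under all 14, with log2 fold changes of -3.09 to -2.25, 1.00 to 1.63 and 1.17 to 1.61. Erbb2 changed sign under DESeq2 (0.03) and with no filter (0.06), without irradiated A (0.03) and without unirradiated B (0.01; -0.02 to 0.03 over the libraries left out), and Btc under the length-GC correction (-0.01), all short of the threshold. Among other named genes Lrig1 with no filter (0.00) and Rhbdf2 under that correction (-0.08) changed sign. The cause was not tested. The test against 1.5-fold, a stricter question, left 3786 of 10593 genes called, and 2 of the 10 genes higher (Egfr and Ereg) and 1 lower (Egf). Across the libraries left out in turn, 4 of the 10 genes were higher, 2 to 3 were lower, and 9420 to 9856 genes were called in all. A lone remaining library is assumed to vary as the other group's pair does. The letters A and B name no shared animal or day, and deviations of the A libraries from their group means correlated at 0.0116 across genes. With the replicate block 10618 genes were called, with 4 of the 10 higher and 3 lower. Scaling alternatives moved the median log2 fold change of all tested genes by less than 0.1. Low counts limit Egf, Ereg, Btc and Nrg1 most, and since the labels name no batch, irradiation and any batch tied to it cannot be told apart.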
